A study of Mus musculus with 6 samples.

Results

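The genes described here are 36 genes of macrophages and other myeloid cells, read in mammary tumours of MMTV-PyMT mice. They were chosen by name, as the rows whose symbol equals 1 of 36 listed symbols, and all 36 were found among the 55487 gene rows. Of these, 35 passed the filter on low counts that left 17396 genes for testing, and Marco did not. RNA was sequenced from 3 tumours of mice given DMHCA, a steroidal compound that activates LXR, the liver X receptors, and from 3 tumours of vehicle mice. Both groups carry the polyoma middle T oncogene under the mouse mammary tumour virus promoter, which is active in mammary epithelium. Treatment was by mouth in gel cups, without a break from 6 weeks of age. Strain, age at collection and mice per group are not stated in the labels. All titles of a group share 1 code that differs between the groups, so a shared source of the tumours of a group cannot be told apart from treatment, and p-values measure only the spread between these samples.

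Macrophages arise from monocytes or from cells seeded before birth, and most depend on signalling by CSF1 or IL34 through the receptor CSF1R. The transcription factor PU.1, encoded by Spi1, sets up the myeloid programme. In tumours of the PyMT model macrophages are abundant and are known for supporting vessel growth and spread. LXR are sterol sensors that raise cholesterol export in macrophages.

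No member was called higher or lower with agonist, and the vehicle libraries differed widely among themselves. Vehicle replicate 2 had the highest level of most members and vehicle replicate 3 the lowest, and the 3 agonist libraries lay close together between them. The 3 chains of complement C1q, the receptor CSF1R and the mannose receptor Mrc1 all followed that order, while 11 members, Csf1, Arg1, Gpnmb and Cx3cr1 among them, did not keep both extremes.

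Upstream sequence is shown first for C1qb, which followed the shared order, for Mrc1, which did so with a 10.5-fold difference between vehicle replicates 2 and 3, and for Csf1, which did not follow it. The sequences are the 250 bases before the gene start in RefSeq (GRCm38.p6), which held entries for 24 of the 36 members, and the first listed start of each gene was used. Capitals mark GAGGAA, a sequence found in PU.1 sites, on either strand, so that TTCCTC is the same sequence read on the other strand. The shorter GGAA within it was neither marked nor counted, and it also occurs unmarked, as in the Csf1 window.
C1qb promoter (chr4:136886201-136886450, minus strand): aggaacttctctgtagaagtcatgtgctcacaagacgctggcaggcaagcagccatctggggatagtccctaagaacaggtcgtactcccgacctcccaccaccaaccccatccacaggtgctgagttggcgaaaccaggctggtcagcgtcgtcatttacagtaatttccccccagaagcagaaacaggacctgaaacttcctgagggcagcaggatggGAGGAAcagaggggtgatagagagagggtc
Mrc1 promoter (chr2:14229164-14229413, plus strand): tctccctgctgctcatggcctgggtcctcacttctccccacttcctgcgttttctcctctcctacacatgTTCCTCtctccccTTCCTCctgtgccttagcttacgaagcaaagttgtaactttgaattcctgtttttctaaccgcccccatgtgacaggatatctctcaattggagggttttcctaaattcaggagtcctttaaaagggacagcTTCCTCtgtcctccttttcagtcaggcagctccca
Csf1 promoter (chr3:107760470-107760719, minus strand): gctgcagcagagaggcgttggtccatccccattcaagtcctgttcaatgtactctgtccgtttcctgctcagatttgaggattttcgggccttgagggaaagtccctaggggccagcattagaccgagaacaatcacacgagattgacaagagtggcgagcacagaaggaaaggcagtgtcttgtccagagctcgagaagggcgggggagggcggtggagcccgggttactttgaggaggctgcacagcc
The core starts 30 bases before the gene start in C1qb, and 180, 167 and 35 in Mrc1, and these letters are not in the Csf1 window. GAGGAA was found in 13 of the 24 matched members and in 23.1% of the 27025 genes with such a window. C1qb, C1qc, Cd68, Ctss, Fcgr1, Fcgr3, Itgam, Laptm5, Mrc1 and Trem2 held it and kept both extremes of the shared order. Ptprc and Aif1 held it without keeping both, and Marco had too few counts. Fcer1g, Lyz2, Fcgr2b, Folr2, Ms4a7, Ccr2 and Cd209a kept both without it. Csf1, Cx3cr1, Cd163 and Gpnmb had neither. A link between these letters and the order was not tested. The longer form GAGGAAGT was in 1 of the 24 (C1qc) and in 2.44% of all windows. TGANTCA, the site of AP-1 factors, was in 2 of 24 (Cd68 and Trem2) and in 6.87% of all. These matches describe letters in a window and no binding was measured.

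The libraries summed to between 36577451 and 42595799 expected counts, the estimated reads per gene. Values per library are given as CPM, counts scaled to library size and by the trimmed mean of M values (TMM) over the tested genes, in the order of replicates 1, 2 and 3. A ± beside a mean is the SD over 3 libraries, and beside a log2 fold change the standard error. Vehicle replicate 2 stood apart in that 1 ribosomal RNA row, CT010467.1, took 5.55% of its counts, against 0.112% to 0.247% in the others. On the TPM scale (a level per transcript length, with an equal total in each library) the median tested gene of that library lay 0.21 log2 units below its mean over the 6 libraries, so TPM serves here to rank genes by level and for ratios within a library, and CPM to compare libraries. Mitochondrial transcripts took 4.69% to 7.48% of the counts.

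By level per length, Lyz2 (lysozyme, an abundant secreted product of macrophages) led with a mean of 225 TPM over the 6 libraries. The C1q chain genes C1qa (129.5), C1qb (104) and C1qc (104), the endotoxin co-receptor Cd14 (113) and the lysosomal protease Ctss (107) followed in TPM, and their order changed from library to library. Arg1 (arginase 1) had 81.1 TPM and Tyrobp (DAP12, a signalling adaptor) 69.2. Cd68, a lysosomal membrane protein, was at 34.1, Trem2, a lipid-sensing receptor that signals through DAP12, at 23.6, and Csf1r at 13.2 TPM. The macrophage surface receptor Adgre1 (F4/80) was lower, at 4.25 TPM, as were the integrin chain Itgam (CD11b, 3.12) and the monocyte chemokine receptor Ccr2 (2.6). Siglec1, Nos2 and Marco were the lowest, with 0.572, 0.0933 and 0.0800 TPM. The defining macrophage genes Adgre1, Csf1r, C1qa, C1qb and C1qc were detected in all 6 libraries. Other cells are known to make some members, such as Csf1 in epithelium and stroma, Cd14 in epithelium and Lyve1 in lymphatic vessels, and in a tumour piece fewer cells of a type and less RNA per cell cannot be told apart.

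Of the 35 members tested, 25 had a log2 fold change (agonist over vehicle) above 0 and 10 below it, with a median of 0.15. Over all 17396 genes 49.3% were above 0 and the median was -0.0049. By edgeR's quasi-likelihood test with Benjamini-Hochberg adjustment over all genes, 0 members passed an adjusted p of 0.05, as did 0 of all genes (0.0%), and every member's adjusted p lay between 0.990 and 0.999. At an unadjusted p under 0.05 there were 0 of 35 members, against 3.09% of all genes. DESeq2 called 0 of these members (0.0172% of all genes), and 1 of them, Arg1, had an unadjusted p under 0.05 (2.66% of all genes). Limma-trend on log2(TPM + 1) called 0 (0.0% of all genes), and without adjustment 0 members were under 0.05 (2.16% of all genes). The 95% interval of the fold change held 0 for all 35, and it was wide. For C1qa it ran from -1.16 to 1.24 on the log2 scale. The 2 groups overlapped for all 35 members on the CPM scale, where 3.02% of all genes did not overlap and were higher with agonist and 4.22% were lower.

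**Figure D1:**
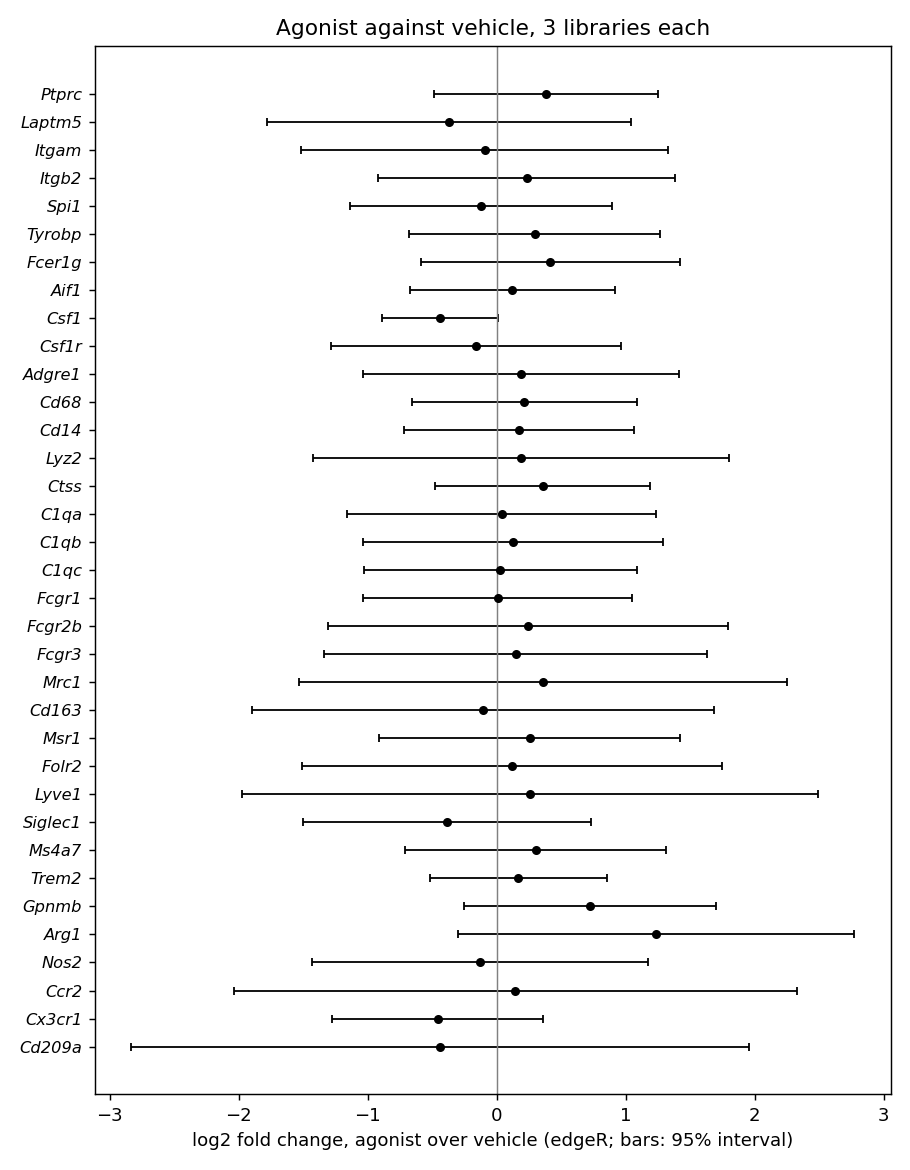
Log2 fold change of agonist over vehicle for the 35 tested members (points), with the 95% interval of the edgeR fit (bars), grouped by role from top to bottom. Every interval holds 0, and Arg1 has the largest value, at 1.23.

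The spread between vehicle tumours was the main feature of these genes. Vehicle replicate 2 had the highest CPM of the 6 libraries for 29 of 35 members (16.9% of all genes) and vehicle replicate 3 the lowest for 28 (20.7% of all genes). Both held together for 24 members (8.43% of all genes). On the TPM scale, vehicle replicate 2 was highest for 22 (6.9% of all genes) and vehicle replicate 3 lowest for 29 (18.4%). These counts were chosen after the values were seen. All 3 agonist libraries lay within the vehicle range for 29 of 35 members in CPM (29.5% of all genes), and for 24 in TPM (35.0%). The median SD of log2 CPM over the members was 0.98 among vehicle libraries and 0.17 among agonist libraries, while over all tested genes it was 0.28 and 0.21. No test of this difference in spread was run. The highest vehicle library exceeded the lowest by a median of 3.9-fold over the members, and the highest agonist library exceeded the lowest by 1.27-fold.

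**Figure D2:**
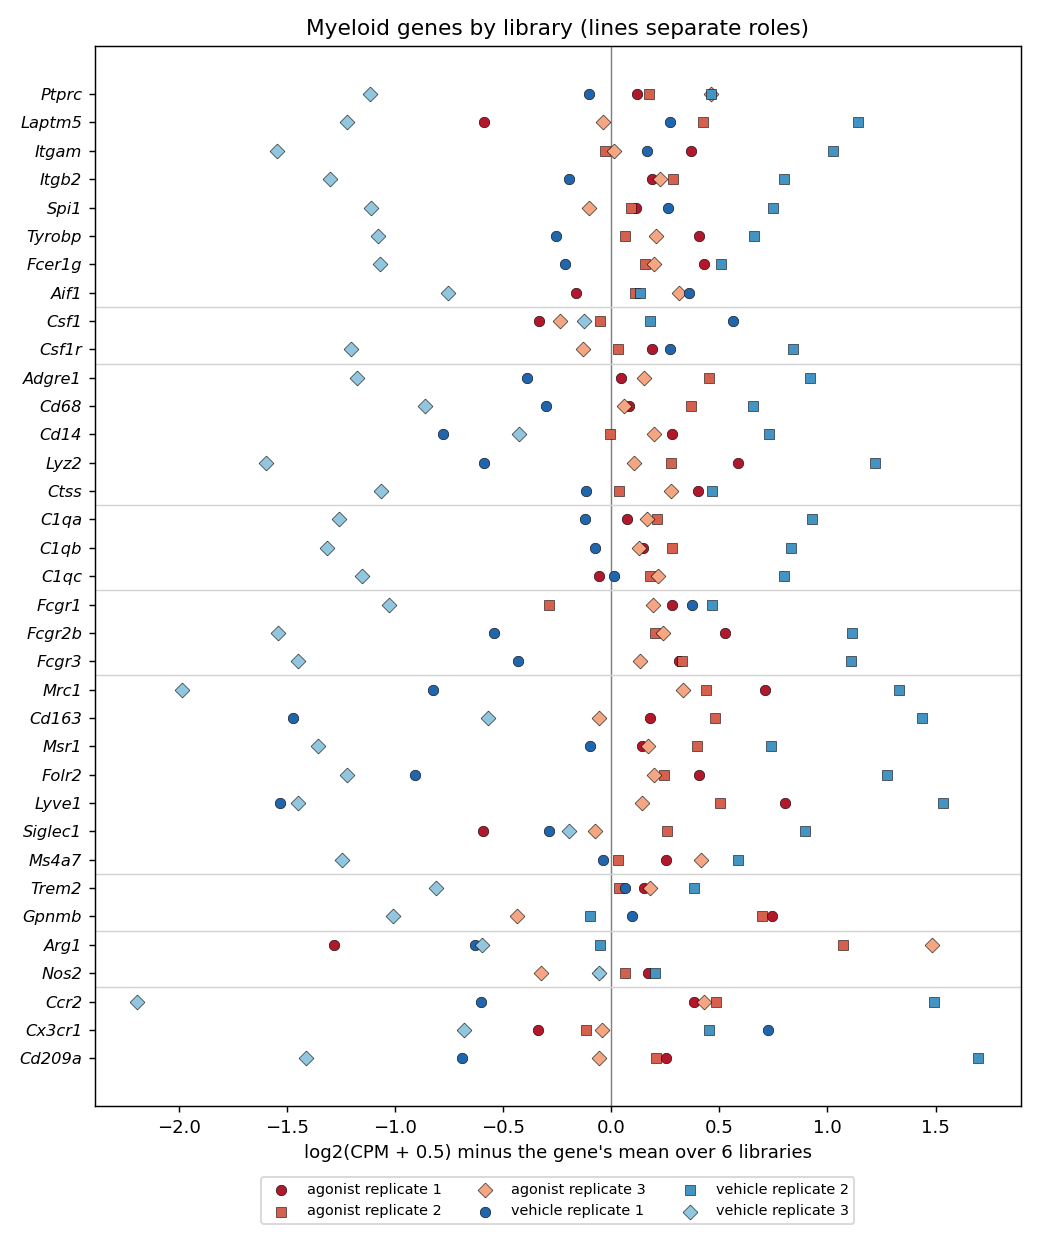
Each row is 1 of the 35 tested members and each point 1 library, placed by its log2(CPM + 0.5) minus the gene's mean over the 6 libraries. The light blue diamonds of vehicle replicate 3 lie lowest for 28 genes and the blue squares of vehicle replicate 2 highest for 29, with the red agonist points between them in most rows.

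The direction of the members as a whole turned on single vehicle libraries. Without vehicle replicate 2, 33 of 35 members were above 0 (50.6% of all genes) with a median of 0.77, and 17 had an unadjusted p under 0.05, all higher with agonist, against 6.61% of all genes in that direction. Without vehicle replicate 3, 6 of 35 were above 0 (49.5% of all genes) with a median of -0.23, and 3 (Csf1, Csf1r and Cx3cr1) were lower at an unadjusted p under 0.05, against 2.43% of all genes in that direction. Without vehicle replicate 1 the median was -0.011, with 17 above 0 (48.0% of all genes). In each of these fits 0 members passed an adjusted p of 0.05 by edgeR (0.0% of all genes). Leaving out any single agonist library kept the median between 0.11 and 0.16.

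**Figure D3:**
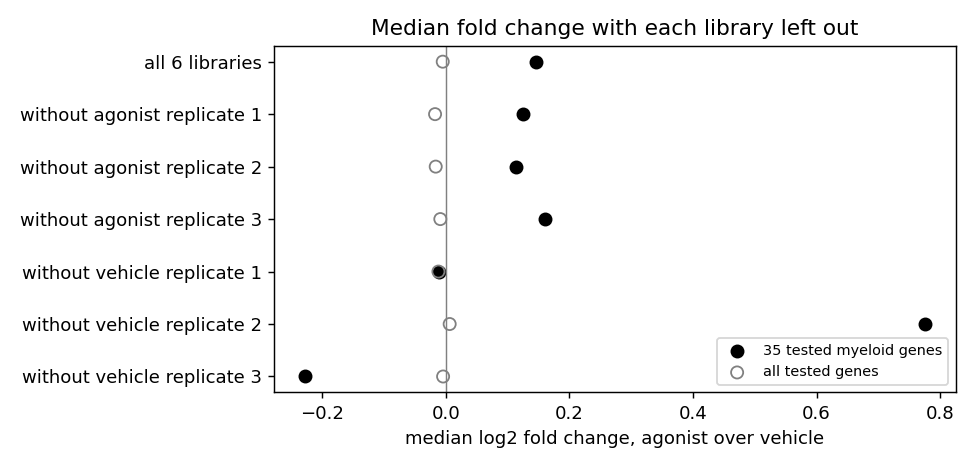
Median log2 fold change of the tested members (filled) and of all tested genes (open), with all 6 libraries and with each library left out in turn. The member median is 0.15 with all libraries, 0.77 without vehicle replicate 2 and -0.23 without vehicle replicate 3, while the median of all genes stays near 0.

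Markers of several other cell types were also highest in vehicle replicate 2 and lowest in vehicle replicate 3 among the vehicle libraries, and their part in the result was not tested. The 7 fibroblast markers, all 7 of them tested, summed to 3049 to 4905 CPM with agonist and 558 to 6744 with vehicle, with 2263, 6744 and 558 in vehicle replicates 1, 2 and 3. Mast cell markers, of which 4 of 6 were tested, summed to 3.51 to 5.88 CPM with agonist and 0.448 to 7.91 with vehicle, and the 5 adipocyte markers to 44.4 to 319.9 CPM with agonist and 20.2 to 448 with vehicle. Lymphatic vessel markers, with 6 of 6 tested, summed to 16.7 to 29 CPM with agonist and 8.28 to 26.7 with vehicle, and blood vessel markers, also 6 of 6, to 42.7 to 59.3 CPM with agonist and 27.2 to 60.0 with vehicle. The 6 epithelial markers varied less, at 3424 to 3653 CPM with agonist and 3547 to 4123 with vehicle, and were lowest in vehicle replicate 1 among the vehicle libraries. T and NK cell markers summed to 5.5 to 10.4 CPM with agonist and 4.75 to 8.65 with vehicle, with 8.48, 8.65 and 4.75 in vehicle replicates 1, 2 and 3. B cell markers summed to 1.19 to 1.76 CPM with agonist and 1.27 to 1.48 with vehicle. None of these lists had a marker at 0 in all 6 libraries.

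The ligand and its receptor behaved differently. Csf1, the growth factor that sustains macrophages (chr3:107741048-107760469, minus strand), was at 37.7, 46.1 and 40.4 CPM with agonist and 70.8, 54.2 and 43.7 CPM with vehicle. Agonist replicates 1 and 3 lay below every vehicle library and agonist replicate 2 above vehicle replicate 3, so the groups overlapped. Its log2 fold change was -0.44 ± 0.20 (95% interval -0.89 to 0.01), with the smallest unadjusted p of all members (0.0544, edgeR) and an adjusted p of 0.990. Without vehicle replicate 1, the library with the highest Csf1, it was -0.24. Csf1r, the receptor (chr18:61100598-61132149, plus strand), was at 58.7, 52.5 and 46.9 CPM with agonist and 62.2, 92.3 and 22 CPM with vehicle, a log2 fold change of -0.16 ± 0.47. Here vehicle replicate 2 was highest and vehicle replicate 3 lowest, with all agonist libraries between them. Without vehicle replicate 2 the fold change turned to 0.31. The genes Hmgxb3 and Mir6983 overlap the annotated span of Csf1r, and with no strand setting stated their reads may not be fully separated.

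Among the genes of myeloid identity, Spi1 (PU.1) was at 13.9, 13.7 and 11.9 CPM with agonist and 15.5, 21.9 and 5.67 CPM with vehicle, a log2 fold change of -0.12 ± 0.44. Its agonist levels spanned 1.17-fold and its vehicle levels 3.86-fold. Ptprc, which encodes CD45 and marks all leukocytes, was at 28.5, 29.7 and 36.3 CPM with agonist and 24.4, 36.3 and 11.9 CPM with vehicle (0.38 ± 0.37, and 0.06 without vehicle replicate 3). Agonist replicate 3 and vehicle replicate 2 were alike at the top. The adaptor Tyrobp was at 23.9, 18.8 and 20.8 CPM with agonist and 15, 28.6 and 8.23 CPM with vehicle (0.29 ± 0.41). Fcer1g, the shared signalling chain of Fc receptors, was at 8.21, 6.71 and 6.92 CPM with agonist and 5.08, 8.71 and 2.59 CPM with vehicle, and Itgb2, the beta chain paired with CD11b, at 17.2, 18.4 and 17.6 CPM with agonist and 13.1, 26.5 and 5.79 CPM with vehicle. Itgb2 had the tightest agonist values of all members, within 1.07-fold. Itgam was at 15.2, 11.4 and 11.7 CPM with agonist and 13.1, 24.1 and 3.66 CPM with vehicle, and its span overlaps 1 annotated gene on the same strand. Laptm5, a lysosomal protein of blood cells, was at 14.4, 29.5 and 21.3 CPM with agonist and 26.5, 48.8 and 9.08 CPM with vehicle and Aif1 (IBA1, an actin-binding protein of macrophages) at 7.91, 9.66 and 11.2 CPM with agonist and 11.6, 9.82 and 5.07 CPM with vehicle. Of these 8 genes, all had their lowest value in vehicle replicate 3, and 5 were above and 3 below 0 in log2 fold change.

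The complement C1q genes lie in a row within 18.7 kb of chromosome 4 (136880129 to 136898803, minus strand), and their products join into the recognition molecule of the classical pathway. C1qa was at 89.7, 98.8 and 95.7 CPM with agonist and 78.3, 163 and 35.3 CPM with vehicle. C1qb was at 81.1, 89 and 79.9 CPM with agonist and 69.5, 130.4 and 29.2 CPM with vehicle, and C1qc at 81, 95.3 and 97.7 CPM with agonist and 85, 146 and 37.6 CPM with vehicle. The 3 genes kept the same extremes, with vehicle replicate 2 highest and vehicle replicate 3 lowest in each. Vehicle replicate 2 exceeded vehicle replicate 3 by 4.61-fold for C1qa, 4.47-fold for C1qb and 3.9-fold for C1qc. Their log2 fold changes were 0.04 ± 0.50, 0.13 ± 0.49 and 0.03 ± 0.44, and with vehicle replicate 3 left out they were -0.34, -0.25 and -0.33. With vehicle replicate 2 left out they were 0.73, 0.75 and 0.57.

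**Figure D4:**
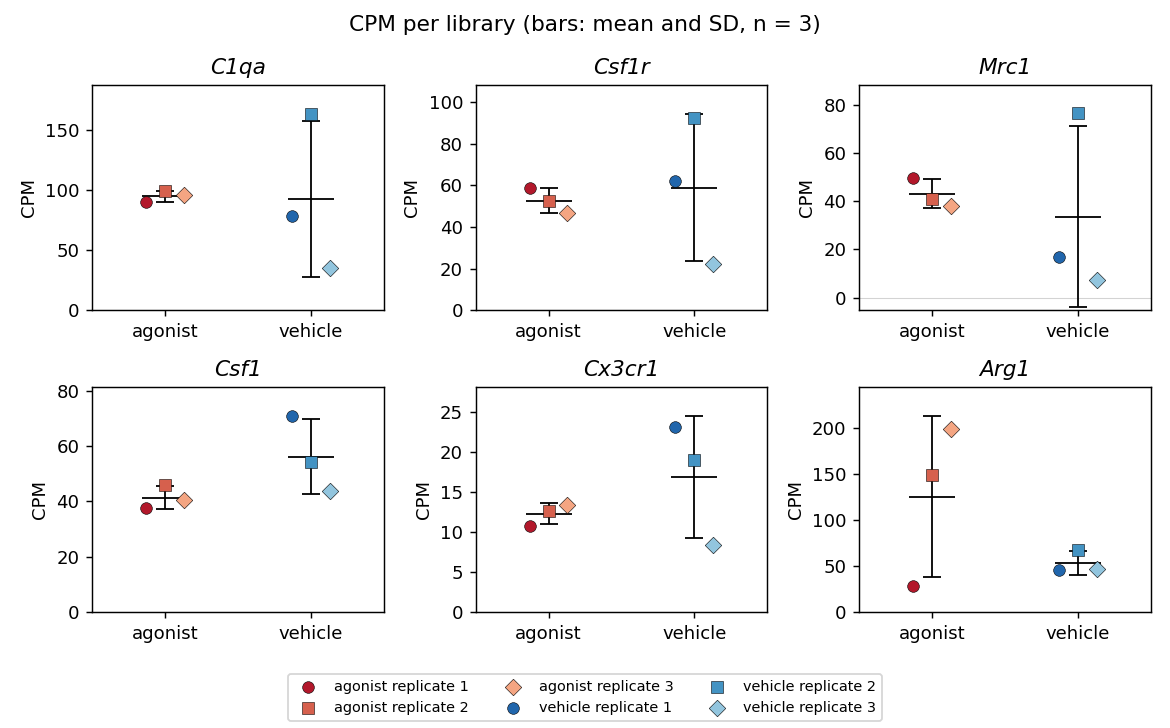
CPM of 6 members in each library (points, coloured by library), with the mean and SD of each group of 3 (bars). C1qa, Csf1r and Mrc1 share a wide vehicle range around close agonist values, while Csf1 and Cx3cr1 are highest in vehicle replicate 1 and Arg1 is highest in agonist replicates 2 and 3.

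Of 5 surface and lysosomal genes, all but Cd14 had both extremes of the shared order. Adgre1 was at 10.3, 13.8 and 11.1 CPM with agonist and 7.5, 19.3 and 4.15 CPM with vehicle (0.19 ± 0.52, and 1.01 without vehicle replicate 2). Cd68 was at 25.1, 30.7 and 24.6 CPM with agonist and 19.1, 37.5 and 12.8 CPM with vehicle (0.21 ± 0.37, and 0.74 without the same library). These genes encode the most used macrophage stains, F4/80 and CD68, and neither separated the groups. Lyz2 was at 285, 230.3 and 205 CPM with agonist and 126, 443 and 62.6 CPM with vehicle (0.19 ± 0.67), a 7.08-fold range among vehicle tumours, and its reads can be shared with the near-identical Lyz1. Ctss was at 137, 106 and 126 CPM with agonist and 95.2, 143 and 49.3 CPM with vehicle. Cd14 was at 163, 133 and 154 CPM with agonist and 77.7, 222 and 99.3 CPM with vehicle (0.17 ± 0.38), and here the lowest library was vehicle replicate 1. All 5 genes had a log2 fold change above 0 and agonist values inside the vehicle range.

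The receptors for IgG bind antibody-coated targets. Fcgr1, the high-affinity form, was at 7.32, 4.78 and 6.88 CPM with agonist and 7.84, 8.39 and 2.66 CPM with vehicle. The inhibitory Fcgr2b was at 27.6, 22 and 22.6 CPM with agonist and 12.9, 41.9 and 6.22 CPM with vehicle and the activating Fcgr3 at 11.9, 12 and 10.5 CPM with agonist and 6.91, 21.1 and 3.16 CPM with vehicle. Each had its highest level in vehicle replicate 2 and its lowest in vehicle replicate 3. Fcgr2b, Fcgr3 and Fcer1g lie within 276 kb of chromosome 1 (170958617 to 171234365), and the first 2 are so alike in their extracellular part that counts split between them are uncertain.

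Scavenger receptors and genes of resident macrophages include several with wide vehicle ranges. Mrc1, the mannose receptor CD206 (chr2:14229392-14332057, plus strand), was at 49.8, 41.2 and 38.2 CPM with agonist and 16.9, 76.9 and 7.29 CPM with vehicle. Vehicle replicates 1 and 3 were below every agonist library and vehicle replicate 2 above them all. Its log2 fold change was 0.36 ± 0.79, -0.11 without vehicle replicate 3 and 1.83 without vehicle replicate 2. Lyve1, the hyaluronan receptor of perivascular macrophages and lymphatic vessels, was at 10.4, 8.35 and 6.4 CPM with agonist and 1.66, 17.6 and 1.79 CPM with vehicle (0.26 ± 0.93). Without vehicle replicate 2 it was at 2.28, with an unadjusted p of 0.000364 and an adjusted p of 0.262 by edgeR. The haemoglobin scavenger receptor Cd163 was at 8.67, 10.8 and 7.28 CPM with agonist and 2.42, 21.4 and 4.95 CPM with vehicle, and the folate receptor Folr2 at 14.4, 12.8 and 12.4 CPM with agonist and 5.49, 26.7 and 4.33 CPM with vehicle. All 4 had low values in vehicle replicates 1 and 3. Msr1, the scavenger receptor SR-A, was at 9.62, 11.5 and 9.81 CPM with agonist and 8.07, 14.8 and 3.08 CPM with vehicle and Ms4a7, a membrane protein of macrophages, at 20.9, 17.8 and 23.4 CPM with agonist and 17, 26.4 and 7.06 CPM with vehicle. Siglec1, the sialic acid receptor CD169, was at 1.9, 3.83 and 2.94 CPM with agonist and 2.46, 6.23 and 2.66 CPM with vehicle, with agonist replicate 1 the lowest library. Marco, a scavenger receptor of marginal zone and alveolar macrophages, had 4, 3 and 18 counts in the agonist libraries and 1, 3 and 1 in the vehicle libraries, too few to compare.

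Trem2 and Gpnmb mark lipid-laden macrophages. Trem2 was at 21.2, 19.6 and 21.7 CPM with agonist and 19.97, 25 and 10.7 CPM with vehicle (0.17 ± 0.29), with 5 libraries close together and vehicle replicate 3 low. Gpnmb, a glycoprotein of stressed lysosomes, was at 16.9, 16.4 and 7.21 CPM with agonist and 10.6, 9.24 and 4.67 CPM with vehicle. It was highest in agonist replicates 1 and 2, while agonist replicate 3 fell among the vehicle libraries. Its log2 fold change was 0.72 ± 0.42 (95% interval -0.26 to 1.70, unadjusted p 0.126 by edgeR). Without agonist replicate 3 it was 1.03, and without vehicle replicate 3 it was 0.45.

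The 2 enzymes that compete for arginine differed greatly in level. Arg1, which breaks arginine down to ornithine (chr10:24915221-24927484, minus strand), was at 28.7, 149 and 198 CPM with agonist and 45.4, 67.9 and 46.4 CPM with vehicle. Agonist replicates 2 and 3 were above all vehicle libraries and agonist replicate 1 was below them all. The log2 fold change was 1.23 ± 0.64 (95% interval -0.30 to 2.77, unadjusted p 0.0985 and adjusted p 0.990 by edgeR). Without agonist replicate 1 it was 1.71, again without a call (unadjusted p 0.000238 and adjusted p 0.9999 by edgeR). Without agonist replicate 3 the Arg1 fold change was 0.74. Arg1 is also known from neutrophils, and 4 of 12 neutrophil markers were tested. The 12 summed to 616, 806 and 849 CPM with agonist and 246, 1190.3 and 499 CPM with vehicle, most of it from Ltf, which is also a milk protein. Ltf was at 580.0, 795 and 826 CPM with agonist and 233, 1172 and 494 CPM with vehicle. Among the agonist libraries it was lowest in replicate 1 and highest in replicate 3, as Arg1 was. Its vehicle values spread far more widely than those of Arg1. S100a8 was at 33.2, 9.86 and 21.8 CPM with agonist and 11.5, 14.9 and 3.73 CPM with vehicle. S100a9 was at 1.63, 0.952 and 0.597 CPM with agonist and 0.524, 1.36 and 0.771 CPM with vehicle. Unlike Arg1, S100a8 and S100a9 were highest in agonist replicate 1. Ly6g was listed at 0 in all libraries. Their part in the Arg1 values was not tested. Nos2, the inducible nitric oxide synthase, had 6 to 16 counts per library (0.143 to 0.426 CPM).

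Of the genes for monocyte and dendritic cell receptors, Ccr2 was at 9.16, 9.86 and 9.48 CPM with agonist and 4.38, 20.3 and 1.12 CPM with vehicle (0.14 ± 0.91). It had the second widest vehicle range, at 18.2-fold, after Cd209a at 22.6-fold. Cd209a, a lectin of monocyte-derived dendritic cells, was at 1.95, 1.88 and 1.48 CPM with agonist and 0.775, 6.18 and 0.274 CPM with vehicle. The fractalkine receptor Cx3cr1 was at 10.8, 12.7 and 13.4 CPM with agonist and 23.1, 19.1 and 8.43 CPM with vehicle (-0.46 ± 0.35, -0.16 without vehicle replicate 1 and -0.78 without vehicle replicate 3). Unlike Ccr2, it was highest in vehicle replicate 1. Its annotated span overlaps 9 other genes, so its counts are uncertain.

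To compare the members within each library, each was also set against the mean of 5 macrophage genes (Adgre1, Csf1r, C1qa, C1qb and C1qc) as a log2 ratio of TPM, which library scaling hardly touches. Of 29 members compared, 2 had groups that did not overlap, 1 in each direction, where 0.39% of all genes did not overlap and were higher and 0.803% were lower. Laptm5 was lower relative to these genes with agonist, at -2.43, -1.58 and -1.75 against -1.22, -1.09 and -1.21 with vehicle, and agonist replicate 1 was well below the rest. Itgb2 was slightly higher, at -2.41, -2.46 and -2.44 against -2.67, -2.53 and -2.64, but with a TPM pseudocount of 1 its groups overlapped. Both had p = 0.1 in a two-sided exact permutation test, the smallest that 3 against 3 libraries can give. The ratio of Csf1 was -1.49, -1.48 and -1.44 with agonist and -0.50, -1.81 and -0.01 with vehicle, highest in vehicle replicates 1 and 3. Cx3cr1 was likewise highest there, at -2.25, -3.43 and -2.47 with vehicle and -3.48, -3.42 and -3.22 with agonist. The ratio of Mrc1 was -0.93, -1.62 and -1.61 with agonist and -2.67, -1.39 and -2.62 with vehicle, and that of Lyve1 was -3.13, -3.60 and -3.84 and -5.03, -3.00 and -4.17. Vehicle replicate 1 had the lowest ratio of the 6 libraries for 9 of 29 members (5.83% of all genes), which were Itgb2, Cd14, Lyz2, Fcgr2b, Fcgr3, Mrc1, Cd163, Folr2 and Lyve1, a count chosen after the values were seen.

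**Figure D5:**
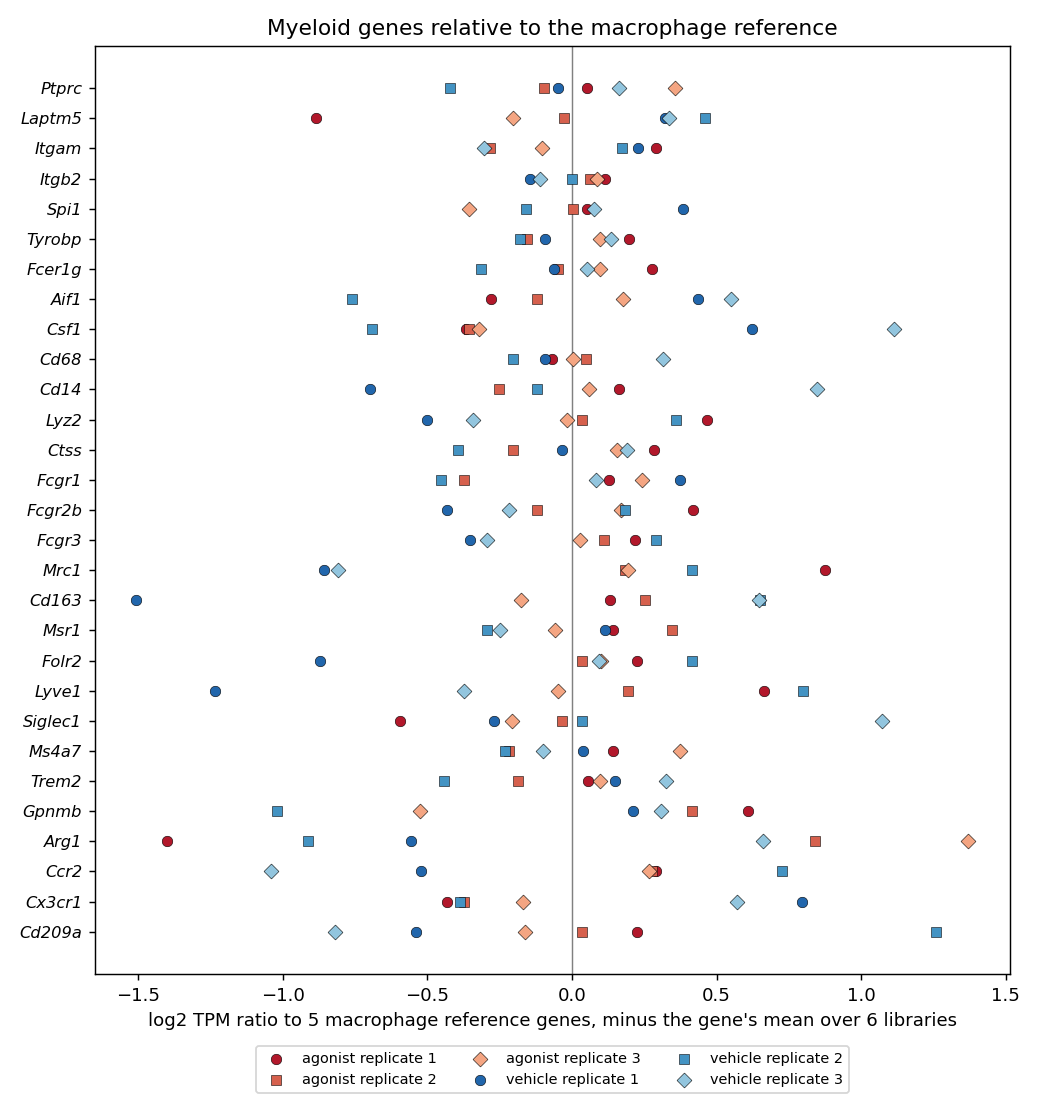
Log2 TPM ratio of 29 members to the mean of 5 macrophage genes in each library, centred on each gene's mean over the 6 libraries. Laptm5 and Itgb2 have groups that do not overlap, and 9 members of several roles, from Itgb2 to Lyve1, have their lowest ratio in vehicle replicate 1.

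The genes whose pattern over the 6 libraries was most like the mean of those 5 macrophage genes, out of 13272 genes, were the complement receptor gene C3ar1 (Pearson r 0.994), Dennd2a (0.994) and the collagen gene Col6a2 (0.993). These values describe 6 libraries that share the wide vehicle range. C3ar1 was at 15.7, 15.5 and 14.6 CPM with agonist and 12.6, 23.6 and 5.67 CPM with vehicle, and Col6a2 at 111, 115 and 106 CPM with agonist and 77.4, 219 and 21.3 CPM with vehicle. Among the members Itgb2 (0.991) and Cd68 (0.987) were closest, and Arg1 (0.279) and Csf1 (0.0897) were farthest of those ranked.

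Other genes of the pathway showed no call either. Of 17 tested genes of growth factor signalling in myeloid cells (18 listed), 7 were above and 10 below 0, with a median of -0.0070. Csf2ra, the GM-CSF receptor alpha chain, had the smallest p of them, at 47.9, 51.8 and 47.2 CPM with agonist and 73.3, 53.4 and 63.4 CPM with vehicle (-0.37 ± 0.15, unadjusted p 0.0433, adjusted p 0.990 by edgeR). Of 46 further macrophage genes, all tested, 26 were above and 20 below, with a median of 0.11. Of 21 tested genes of phagocytic signalling and actin (23 listed), 11 were above and 10 below (median 0.03), and the actin bundler Lcp1 was at 0.49 ± 0.26. Of 9 tested genes of cytokines and inflammation (12 listed, Tgfb1 and Ptgs2 among them), 8 were below 0 (median -0.26), while 49.3% of all genes were above 0. The exception was Il1b, at 4.36, 3.12 and 3.37 CPM with agonist and 2.78, 2.32 and 0.895 CPM with vehicle (0.85 ± 0.47, and 0.50 without vehicle replicate 3). Without vehicle replicate 1, 4 of the 9 were above 0 (median -0.12), and without vehicle replicate 3 the median was -0.43. With no low-count filter, 4 of 12 were above 0 (median -0.17). Of 11 chemoattractant genes, 8 were below 0 (median -0.07), but without vehicle replicate 2, 8 were above 0 (median 0.78). Without vehicle replicate 3, 1 was above 0 (median -0.46), and without vehicle replicate 1 the median was -0.31. Over these lists 0 genes were called, as over all genes, and the medians of the growth factor, macrophage and phagocytic lists were 0.30, 0.55 and 0.49 without vehicle replicate 2 and -0.28, -0.14 and -0.25 without vehicle replicate 3.

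Of 16 LXR targets known in macrophages, 12 were above 0, with a median of 0.27, and 3 (Abcg1, Scd2 and Abca1) had an unadjusted p under 0.05, against 3.09% of all genes. Without vehicle replicate 3, 8 of 16 were above 0 with a median of 0.0085, and without vehicle replicate 2 the median was 0.62. The cholesterol exporter Abca1 was at 100.2, 136 and 118 CPM with agonist and 42.9, 99.9 and 54.3 CPM with vehicle. Abcg1, another exporter, was at 39.7, 40.0 and 30.7 CPM with agonist and 14.2, 24.5 and 22.3 CPM with vehicle. Among the vehicle libraries both were highest in replicate 2, as most members were. Both were lowest in vehicle replicate 1 and not in vehicle replicate 3, as were members such as Cd14, Cd163 and Lyve1. The part of macrophage content in their levels was not tested. Abca1 and Abcg1 were above every vehicle library in all 3 agonist libraries, as were 3.02% of all genes. For Abca1 the margin was narrow, at 100.2 CPM in agonist replicate 1 against 99.9 CPM in vehicle replicate 2. Neither passed an adjusted p of 0.05 (0.990 each, edgeR). Nr1h3, also on this list, was at 8.56, 10.2 and 6.80 CPM with agonist and 7.59, 11.1 and 8.75 CPM with vehicle. Its groups overlapped and its log2 fold change was -0.11 ± 0.27.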

How the data were processed

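The authors deposited RSEM expected counts (estimated counts that need not be whole) and TPM and FPKM per gene, 1 table per library. FPKM as deposited was not used. The submitters' processing notes name cutadapt 3.5, STAR 2.7.9a, RSEM 1.3.1 and the build GRCm38. Neither notes nor labels state an annotation release or strand setting. Positions are from GENCODE M21.

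Counts were rounded and tested with edgeR 4.0.16 in R 4.3.3 (TMM, filterByExpr with a minimum count of 10 and minimum total of 15, robust quasi-likelihood F test, no covariates), with Benjamini-Hochberg adjustment over 17396 genes and a threshold of 0.05. The 5 genes of the macrophage mean were chosen by name. Standard errors are the log2 fold change over the square root of F. In these libraries 3 counts correspond to 0.0704 to 0.082 CPM, for counting error only. Ratios used log2(TPM + 0.1) and members with a mean of at least 0.1 TPM. The genes named are the 36 members, genes among the 3 with the smallest p in each other list, Abca1, Abcg1, Nr1h3, and the 3 most alike genes with a mean log2 CPM of at least 1. Ly6g and CT010467.1 were named after their values were seen. The members and lists were chosen with earlier results of these data known. Alternatives were other scalings and filters, a replicate block, DESeq2 1.42.0, limma 3.58.1 and leaving out each library. The edgeR, DESeq2 and limma steps were tested on simulated data.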

Additional observations from a re-analysis of the deposited data

How the results depend on the processing

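Over the 13 alternative settings, 0 members passed an adjusted p of 0.05. Over all genes DESeq2 called 5 genes, none of them a member, where edgeR called 0. Of the 19 members whose fold change is given, 5 kept their sign in every setting (Ptprc, Csf1, Gpnmb, Arg1 and Cx3cr1). With single libraries left out, the others ran from -0.55 to 0.31 (Csf1r), -0.18 to 1.01 (Adgre1), -0.070 to 0.74 (Cd68), -0.10 to 0.76 (Cd14), -0.23 to 1.34 (Lyz2), -0.34 to 0.73 (C1qa), -0.25 to 0.75 (C1qb) and -0.33 to 0.57 (C1qc). Tyrobp ran from -0.033 to 0.86, Spi1 from -0.50 to 0.31, Mrc1 from -0.11 to 1.83, Lyve1 from -0.21 to 2.28, Trem2 from -0.11 to 0.44 and Ccr2 from -0.36 to 1.78. For these 14 genes the highest value came without vehicle replicate 2.

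With the replicate number as a block, Csf1r turned to 0.056 and Spi1 to 0.069 and the member median to 0.46, and 0 genes were called. Same-numbered libraries had correlated deviations of 0.172, 0.0377 and 0.0628. Each vehicle library correlated best with the agonist library of its own number, as did agonist replicates 1 and 3 with the vehicle libraries. Agonist replicate 2 correlated best with vehicle replicate 3 (0.055). The labels give no pairing and these values do not settle it, so the main test was left unpaired. On log2(TPM + 1) with limma-trend, Csf1r was at 0.083 and Spi1 at 0.12, and the median was 0.40. The cause of these turns was not tested. With 3 tumours per group the median SD of a member among vehicle libraries was 0.98 log2 units, which limits what can be detected.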
